A study of Mus musculus with 8 samples.

Results

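Lysosomes and autophagosomes are served here by 65 genes: the subunits of the vacuolar proton pump (V-ATPase), the cathepsins, the LAMP membrane proteins and the factors that start, build and load autophagosomes. They were taken by symbol, as every gene of the families Atp6v0, Atp6v1, Atp6ap, Cts, Lamp, Atg, Map1lc3, Gabarap and Ulk, with Becn1, Sqstm1 and Tfeb. A gene was kept where the signal of a probe stood well above background on 4 or more of the 8 arrays. That left 65 of 73 such genes and 81 of their 91 probes, among 19997 genes tested. The arrays came from C57BL/6 mice given either chow, the control diet, or a high-fat diet, and from RNA of samples labelled as pancreatic beta cells. There were 4 biological replicates per diet, labelled with Cy3 and read on 1 Agilent mouse array apiece. The time on the diet, the age of the mice, whether a replicate is a single animal or a pool, and the way the cells were isolated are not given in the sources used here. The p-values measure the spread between these samples.

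The lysosome is the acidic compartment in which cells degrade proteins, lipids and sugars. The V-ATPase makes it acidic: a V1 sector in the cytosol splits ATP and a V0 sector in the membrane carries the protons. Cathepsins are the proteases inside it, and LAMP proteins line its membrane. Autophagy delivers cytosol and organelles to it, through a kinase complex around ULK1, a lipid kinase complex around Beclin 1, and ubiquitin-like proteins of the Atg8 family (LC3 and GABARAP) that are joined to the growing membrane. TFEB is a transcription factor of lysosomal genes. In beta cells the same organelles take up insulin granules and damaged mitochondria, and autophagy genes are known to be needed for normal insulin secretion in mice.

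On each array 63.6% to 68.6% of 43020 non-control spots were well above background, and the 75th percentile of the signal lay between 333.6 and 710.8 intensity units, lowest on control replicate 3. Replicates 1 and 2 of both diets lay on slide 1 and replicates 3 and 4 on slide 2. Control samples were always at array positions 1 and 3 and high-fat samples at 2 and 4, so position and diet cannot be told apart. The samples held RNA of several cell types. All 7 beta cell markers listed, insulin among them, were well above background on all 8 arrays, as were all 5 alpha cell, 3 delta and PP cell, 6 acinar and 10 macrophage markers. The mean log2 level of the alpha cell markers lay between 1.43 and 2.04 in control and between 0.62 and 1.19 in high-fat samples, and 4 of the 5 were lower at an unadjusted p under 0.05. Of the delta and PP cell markers 2 of 3 were lower at that p, Sst at -0.38 and Hhex at -0.59 (log2 difference, high-fat minus control). Of the beta cell markers 1 of 7 was lower at that p. Their median difference was 0.033, with -0.0035 on slide 1 and -0.32 on slide 2. The mean level of the acinar markers lay between 7.74 and 8.68 in control and between 8.01 and 8.80 in high-fat samples, with a median difference of 0.59 on slide 1 and -0.34 on slide 2. For the macrophage markers it lay between -0.14 and 0.61 in control and between -0.62 and 0.19 in high-fat samples. Fewer cells of a type and less RNA per cell cannot be told apart in such samples, and the part of these markers in the results below was not tested.

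No gene of the lysosome and autophagy machinery passed the test between diets. At an adjusted p under 0.05 (limma, Benjamini-Hochberg adjustment over all 19997 genes) 0 of the 65 members were called, and 0% of all genes were. The smallest adjusted p was 0.795 among the members and 0.103 over all genes. At an unadjusted p under 0.05, 1 member was higher after the high-fat diet, where 2.62% of all genes were. None of the 65 was lower at that p, where 3.17% of all genes were. The high-fat arrays all lay above the control arrays for 2 of 64 members with a value on all 8 arrays, Ctsa and Atg13, against 1.73% of all genes. They all lay below for 0 members, against 1.62% of all genes.

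The differences were small. A log2 difference, high-fat minus control throughout, lay above 0 for 43 members and below 0 for 22. The share above 0 was 66.2% over the members and 51.2% over all genes. The median was 0.058 over the members and 0.0062 over all genes. The 43 include Atp6v1g3, Atp6v0a4 and Ctsr, which passed the filter mainly through the high-fat arrays and are no support for higher members. Of the 22, Ctsm and Ctsg exceeded background on more control than high-fat arrays. Of the 60 members well above background on all 8 arrays, 40 lay above 0. With that filter the median was 0.054 over the members and 0.0075 over all genes. For 40 of 65 members the 95% interval of the difference lay within 0.5 of 0 on either side, as it did for 42.5% of all genes tested. For these members a larger difference lay outside the interval, and for the other 25 the interval reached past 0.5. The members' median stayed above 0 with the scalings tried, at 0.0073 with quantile normalization, 0.13 with median scaling and 0.0028 in the deposited value table. The medians of all genes were 0.0036, 0.077 and 0.001 in these settings. The members' median was -0.25 with normexp background correction, which moved the median of all genes to 0.12 and turned the sign of 41 members. Into that correction enter 7 spots of high-fat replicate 2 with a local background over 4 times the array's median, a bright smear. Without the smeared spots normexp gave a median of 0.054 over the members and 0.029 over all genes, and 8 signs turned. Where a sign is said to turn with normexp, the value without these spots stands beside it. Without high-fat replicate 2 the median was 0.0072 over the members and 0.0070 over all genes.

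**Figure D1:**
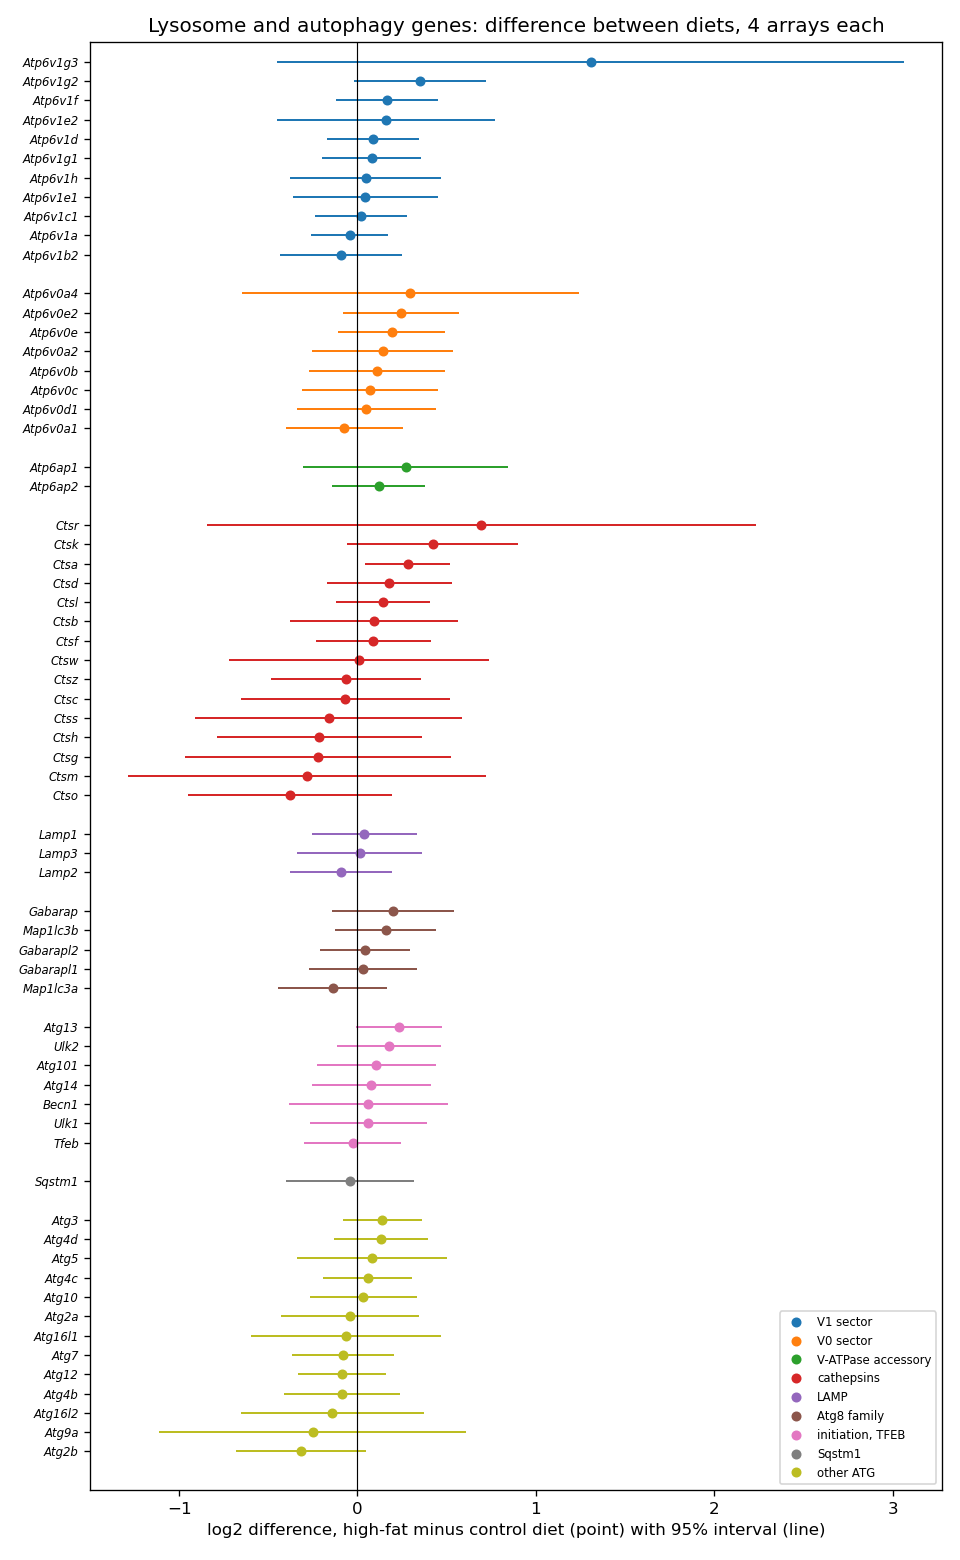
Log2 difference between diets (x axis, high-fat minus control, point) with its 95% interval (line) for each of the 65 member genes, grouped and coloured by role. All intervals but that of Ctsa reach 0 or lie across it, and the widest belong to Atp6v1g3 and Ctsr, whose probes are dim.

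Ctsa encodes cathepsin A, a carboxypeptidase that also protects beta-galactosidase and neuraminidase in the lysosome. It was the member higher at an unadjusted p under 0.05. Its log2 levels, given relative to the 75th percentile of each array as all levels here, were 4.28, 4.31, 4.20 and 4.12 in control replicates 1 to 4. In high-fat replicates 1 to 4 they were 4.52, 4.66, 4.45 and 4.41. Every high-fat sample lay above every control sample, by the least between control replicate 2 and high-fat replicate 4. The difference was 0.28 ± 0.10 (SE, n = 4 per diet), a 1.21-fold higher signal with a 95% interval from 1.03 to 1.43, and its limma adjusted p was 0.795. Slide 1 gave 0.29 and slide 2 gave 0.27. Without control replicate 4 the difference was 0.24 and without high-fat replicate 2 it was 0.23, and in neither case was it at an unadjusted p under 0.05. The sign turned with normexp background correction, which gave -0.17, but without the smeared spots normexp gave 0.26, at that p. Quantile normalization gave 0.15 and median scaling 0.35, both short of that p.

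A pair of probes read Ctsa, and they are shown because they did not give the same difference. Both match the plus strand of chromosome 2 on mm9, and the first 30 bases of each are printed. No annotation of mm9 was used here, so their exon is not given.

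Ctsa probe at chr2:164665023-164665082: gggtggatggattctaattgatggttgact
Ctsa probe at chr2:164666433-164666492: gcggctaggtaaataagtatggttttatct

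The probe at 164665023 gave the levels above. The probe at 164666433 had control levels of -3.23, -4.11, -2.65 and -3.01 and high-fat levels of -2.81, -3.08, -3.26 and -3.34, so the diets overlapped on it. Its difference was 0.13 ± 0.29 (SE). The mean of the probes gave Ctsa a difference of 0.20, which was not at an unadjusted p under 0.05.

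**Figure D2:**
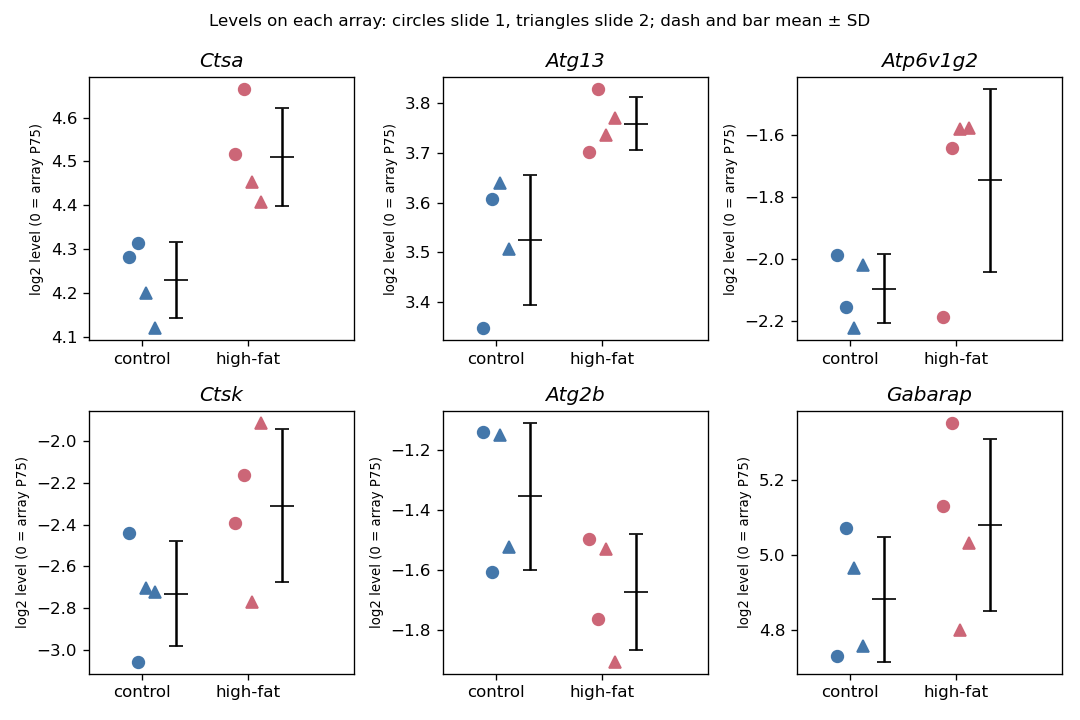
Log2 level on each array (y axis, 0 is the 75th percentile of the array) of 6 member genes, control in blue and high-fat in red, circles for slide 1 and triangles for slide 2, with mean ± SD (n = 4). The diets do not overlap for Ctsa and Atg13 and overlap for Atp6v1g2, Ctsk, Atg2b and Gabarap.

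Among the other cathepsins the differences went both ways. Of 15 cathepsins kept, 8 lay above 0 and 7 below, with a median of 0.0091, and their intervals were wide: 3 of 15 lay within 0.5 of 0. The aspartic protease cathepsin D (Ctsd), the main lysosomal endopeptidase of its class, stood at 4.29, 4.66, 4.11 and 4.22 in control and at 4.39, 4.74, 4.36 and 4.50 in high-fat samples. The diets overlapped, since control replicate 2 was above 3 of the 4 high-fat samples. The difference was 0.18 ± 0.15 (SE, limma adjusted p = 0.934). The cysteine proteases cathepsin B (Ctsb) and cathepsin L (Ctsl) differed by 0.092 ± 0.20 and 0.14 ± 0.11. For Ctsb control replicate 1 and high-fat replicate 1 were the lowest arrays, at 3.45 and 3.54, while the other 6 lay between 3.80 and 4.26. For Ctsl control replicate 1 stood alone at 4.25, below the other 7 arrays at 4.50 to 4.74. With normexp background correction the differences of Ctsb, Ctsd and Ctsl lay below 0, and without the smeared spots they were 0.058, 0.17 and 0.13.

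Cathepsins K and O marked the ends among cathepsins measured on all 8 arrays. Cathepsin K (Ctsk), the collagen-degrading protease best known from osteoclasts, stood at -2.44, -3.06, -2.70 and -2.72 in control and at -2.39, -2.16, -2.77 and -1.91 in high-fat samples. The diets overlapped through high-fat replicate 3, and the difference was 0.42 ± 0.21 (SE, limma adjusted p = 0.872). It was at an unadjusted p under 0.05 without control replicate 1 (0.52) or high-fat replicate 3 (0.58), and also with quantile normalization (0.49), median scaling (0.49) and in the deposited value table (0.13). All 5 stellate cell markers also lay above 0 (median 0.25), with 0 at an unadjusted p under 0.05. Their mean level was lowest on control replicate 2 (-1.56) and highest on high-fat replicate 4 (0.061), as the level of Ctsk was. The part of these markers in the Ctsk value was not tested. Cathepsin O (Ctso) stood at -2.73, -2.83, -3.12 and -3.02 in control and at -2.61, -3.83, -3.29 and -3.49 in high-fat samples. High-fat replicate 1 was its highest array and the other 3 high-fat samples its lowest, and the difference was -0.38 ± 0.25 (limma adjusted p = 0.925). Without high-fat replicate 1 it was -0.61, at an unadjusted p under 0.05, and normexp background correction turned its sign, with 0.48, where the value without the smeared spots was -0.066.

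Cathepsins S, H and Z, which myeloid cells also express, had differences below 0 and diets that overlapped. Cathepsin S (Ctss), an antigen-processing protease of macrophages and other myeloid cells, stood at 1.87, 2.39, 2.58 and 1.85 in control and at 1.29, 2.47, 1.68 and 2.61 in high-fat samples. Its spread of 0.63 (SD) within the high-fat diet was larger than its difference of -0.16 ± 0.32 (SE). Cathepsin H (Ctsh) differed by -0.21 ± 0.25, with high-fat samples spread from 1.30 to 2.37. Cathepsin Z (Ctsz) differed by -0.064 ± 0.18. Median scaling turned the sign for Ctsz. The dipeptidyl peptidase cathepsin C (Ctsc) differed by -0.068 ± 0.25 and cathepsin F (Ctsf) by 0.090 ± 0.14. The sign of Ctsc turned with normexp (0.32, and 0.014 without the smeared spots), median scaling (0.0023) and the deposited value table (0.00675).

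Over the 8 arrays of both diets pooled, Ctsh and Ctss had the highest correlations with the macrophage markers of 15 cathepsins computed. A diet holds 4 samples, too few for a value within it, so the pooled values include the difference of the markers between diets. The mean level of 10 macrophage markers correlated with Ctsh at a Pearson r of 0.824 (n = 8, exact permutation p = 0.0138, adjusted 0.177) and a Spearman rho of 0.810 (p = 0.0218, adjusted 0.327). For Ctss, r was 0.773 (exact permutation p = 0.0236, adjusted 0.177) and rho 0.738 (p = 0.0458, adjusted 0.344). Both relations fail the correction over 15 cathepsins. They also rest on high-fat replicates 1 and 3, the arrays farthest from the median of the marker level, since without them r was 0.477 for Ctsh and 0.344 for Ctss. With the slide means removed r was 0.857 and 0.832, and each slide holds 4 samples, too few for a value of its own. For Ctsd r was 0.271 (exact permutation p = 0.516) and for Ctsa it was -0.341 (exact permutation p = 0.408).

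**Figure D3:**
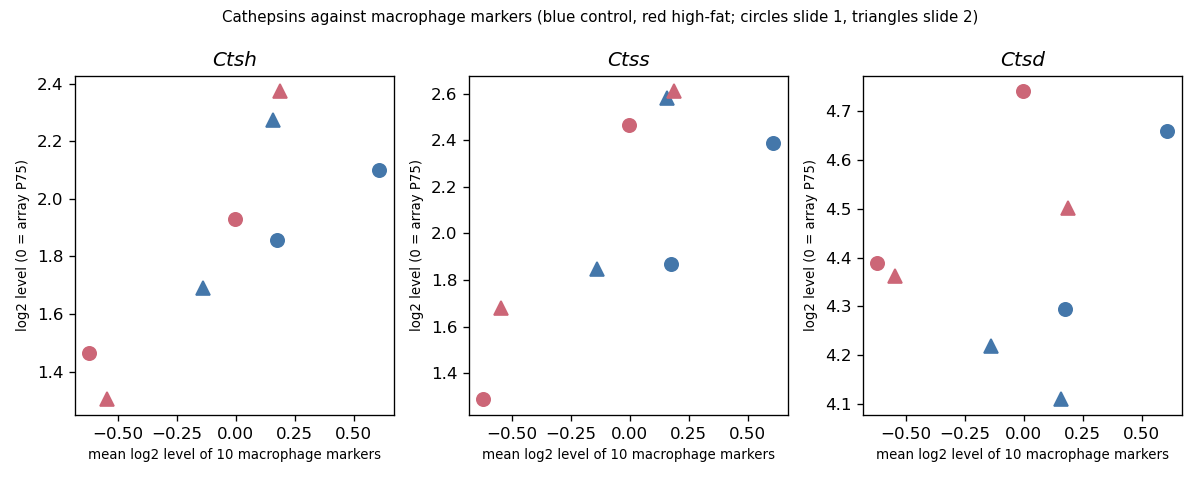
Log2 level of Ctsh, Ctss and Ctsd (y axes, 0 is the 75th percentile of the array) against the mean log2 level of 10 macrophage markers (x axis), 1 point per array, control in blue and high-fat in red, circles for slide 1 and triangles for slide 2. High-fat replicates 1 and 3 lie at the far left, at -0.62 and -0.55 of the marker level.

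Some cathepsins were near the detection limit, and for these the diets differ in how many arrays measured them. Cathepsin R (Ctsr), a placental family member, exceeded background on 2 of 4 control and 4 of 4 high-fat arrays, with control levels from -6.46 to -2.99 and high-fat levels from -4.67 to -3.85. It passed the filter mainly through the high-fat arrays, so its difference of 0.69 ± 0.67 is no support for a higher level, and its interval was the widest among cathepsins, from -0.84 to 2.23. Ctsm did so on 3 control and 2 high-fat arrays and Ctsg on 4 and 3, with differences of -0.28 ± 0.44 and -0.22 ± 0.32. Normexp background correction turned the sign of both, also without the smeared spots (0.091 and 0.052). Cathepsin W (Ctsw), found in cytotoxic lymphocytes, differed by 0.0091 ± 0.32 between diets. It was the single member that differed between slides at an adjusted p under 0.05, by 0.82 higher on slide 2 (limma adjusted p = 0.0318), where 3.05% of all genes were called.

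The V-ATPase subunits lay mostly above 0 by small amounts. Of 21 subunit and accessory genes kept, of 24 on the array, 18 lay above 0, with a median difference of 0.11, and none at an unadjusted p under 0.05. Among the 18 are Atp6v1g3 and Atp6v0a4, whose probes exceeded background on 1 control array each and on 4 and 3 high-fat arrays. They passed the filter mainly through the high-fat arrays, so their sign is no support for a higher level. This balance turned to 5 of 21 above 0 with normexp background correction (median -0.27), was 16 of 21 with normexp without the smeared spots (0.10) and became 12 of 21 with quantile normalization (0.028) and in the deposited value table (0.029). It also rests on control replicate 3, which was the lowest of the 8 arrays for 10 of the 21 genes (47.6%), as it was for 29.2% of all members and 13.9% of all genes. The median deviation of the 21 genes from their own mean was -0.23 on that array. Without control replicate 3, 12 of 21 lay above 0 with a median of 0.058. On slide 1, which does not hold that array, 12 of 21 lay above 0 with a median of 0.052, and on slide 2 the values were 20 and 0.18. Of all 19997 genes 10238 lay above 0 in the main fit, 11125 on slide 1 and 8495 on slide 2.

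**Figure D4:**
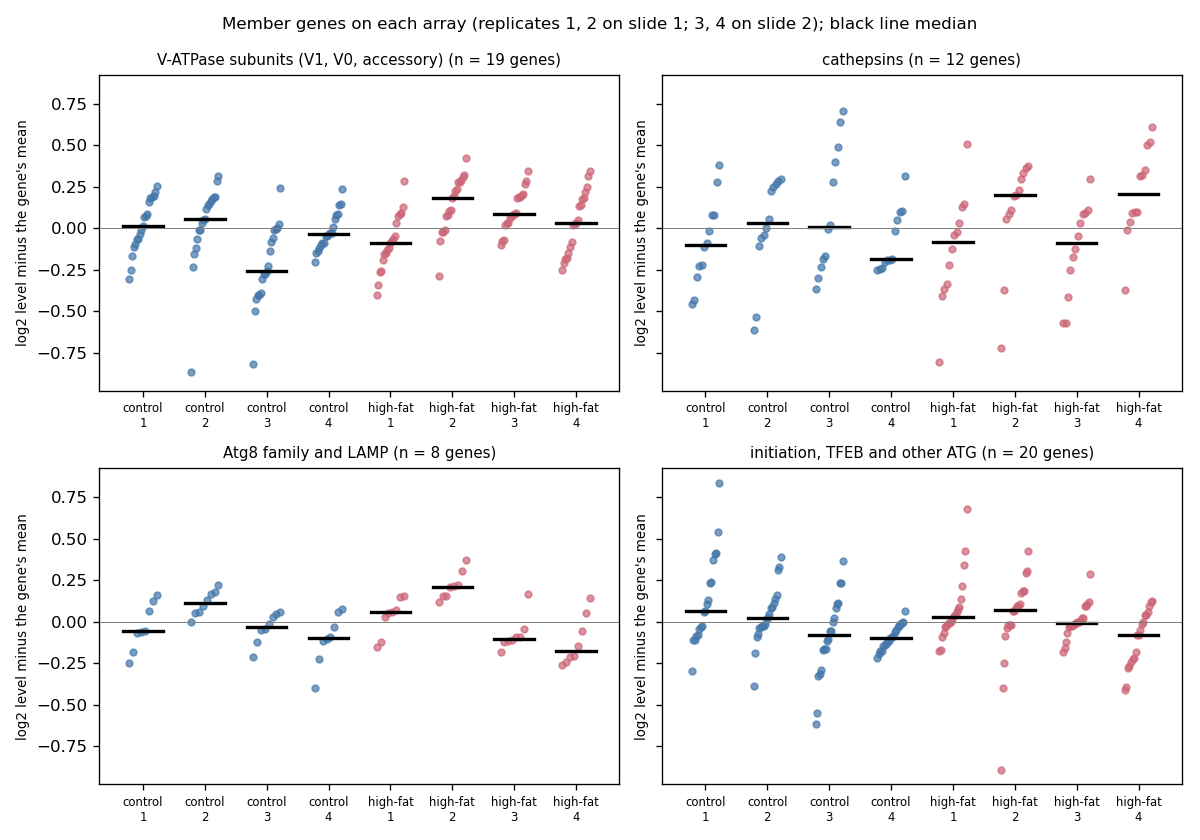
Deviation of each member's log2 level from its mean over the arrays (y axis) on each of the 8 arrays (x axis), for genes well above background on all of them: V-ATPase genes, cathepsins, Atg8 family with LAMP, and initiation factors with TFEB and the other ATG genes. Each point is a gene and the black line the median, which is lowest for the V-ATPase genes on control replicate 3.

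In the V1 sector, which splits ATP, 9 of 11 genes lay above 0 with a median of 0.080. Atp6v1g3, which passed the filter mainly through the high-fat arrays, is among the 9. The catalytic A subunit (Atp6v1a) stood at 2.38, 2.48, 2.37 and 2.32 in control and at 2.25, 2.35, 2.40 and 2.39 in high-fat samples. Its 8 values overlapped closely, and the difference was -0.043 ± 0.092, with a 95% interval from -0.25 to 0.17. The regulatory B2 subunit (Atp6v1b2), the lowest of the sector, differed by -0.093 ± 0.15, with control replicate 3 at -0.17 and the other control samples between 0.16 and 0.32. Both signs held in the scalings tried except that median scaling gave Atp6v1a 0.028. The remaining V1 subunits Atp6v1c1, Atp6v1d, Atp6v1e1, Atp6v1e2, Atp6v1f and Atp6v1h differed by 0.021 to 0.17, the highest being Atp6v1f at 0.17 ± 0.12, and the values of Atp6v1e2, the testis isoform, were the least precise (SE 0.26).

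The G subunits of the stalk exist as isoforms. The widely expressed Atp6v1g1 had a difference of 0.080 ± 0.12. The brain isoform Atp6v1g2 stood at -1.99, -2.15, -2.22 and -2.02 in control and at -2.19, -1.64, -1.58 and -1.58 in high-fat samples. High-fat replicate 1 lay among the control samples and the other 3 high-fat samples lay above all of them. The difference was 0.35 ± 0.16 (limma adjusted p = 0.856), and 0.50 (limma adjusted p = 0.217) without high-fat replicate 1. It passed an unadjusted p of 0.05 with quantile normalization (0.41) and with median scaling (0.42).

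The probes of Atp6v1g2 did not share a sign, so their first 30 bases are given as well, both on the plus strand of mm9.

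Atp6v1g2 probe at chr17:35374918-35374977: aggcttctatgtgacaggatccaatattcc
Atp6v1g2 probe at chr17:35372864-35372923: ctccggaggggaaataagacaatttgcgac

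The probe at 35374918 gave the levels above. The probe at 35372864 stood at -2.58, -2.87, -2.26 and -3.26 in control and at -2.23, -2.90, -3.04 and -3.05 in high-fat samples, and its difference was -0.063 ± 0.26. The diets overlapped on that probe.

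The probe of the kidney isoform Atp6v1g3 exceeded background on 1 of 4 control and 4 of 4 high-fat arrays. It passed the filter mainly through the high-fat arrays, so its fitted difference of 1.31 ± 0.76 (limma adjusted p = 0.907) is against a group mostly not well above background. Its control levels were -6.44, -7.14, -3.22 and -5.07, and its high-fat levels were -4.47, -4.55, -4.01 and -3.61. The 1 control array that measured it, control replicate 3, was its highest array of all 8, so the diets overlapped. Slide 1 gave 2.28 and slide 2 gave 0.33, and the difference was 2.06 without control replicate 3. It was 0.93 with normexp, 0.30 with normexp without the smeared spots and 0.048 in the deposited value table.

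In the V0 sector, which conducts protons, 7 of 8 genes lay above 0 with a median of 0.13, and 4 of 8 did without control replicate 3. Atp6v0a4, which passed the filter mainly through the high-fat arrays, is among the 7. The proteolipid ring subunit Atp6v0c stood at 4.38, 4.36, 3.76 and 4.09 in control and at 4.09, 4.42, 4.26 and 4.10 in high-fat samples. Control replicate 3 was the lowest array and the other control samples spanned nearly the same range as the high-fat samples, with a difference of 0.071 ± 0.16 that turned sign with quantile normalization (-0.056). The stalk subunit Atp6v0d1 differed by 0.051 ± 0.17, with -0.22 on slide 1 and 0.32 on slide 2. The a1 isoform (Atp6v0a1), which is found in neurons and secretory cells, was the lowest of the sector at -0.074 ± 0.14. Atp6v0a2, Atp6v0b and Atp6v0e differed by 0.14 ± 0.17, 0.11 ± 0.16 and 0.19 ± 0.13.

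The small subunit Atp6v0e2 stood at 3.78, 3.91, 3.49 and 3.85 in control and at 3.72, 4.10, 4.08 and 4.10 in high-fat samples. As for Atp6v1g2, high-fat replicate 1 lay among the control samples and the other 3 high-fat samples above all of them. The difference was 0.24 ± 0.14 (limma adjusted p = 0.902), and 0.34 without high-fat replicate 1, at an unadjusted p under 0.05. Normexp background correction gave -0.20, and 0.23 without the smeared spots. The kidney isoform Atp6v0a4 had a probe above background on 1 of 4 control and 3 of 4 high-fat arrays, and its difference of 0.30 ± 0.41 rests on that.

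The accessory proteins assemble the pump and link it to signalling. Atp6ap1 (Ac45), which guides the pump into secretory granules, stood at 3.17, 3.26, 2.16 and 2.77 in control and at 2.79, 3.28, 3.26 and 3.11 in high-fat samples. Control replicate 3 was its lowest array, and the diets overlapped. The difference was 0.27 ± 0.25. Slide 1 gave -0.18 and slide 2 gave 0.72, and the difference was 0.044 without control replicate 3. The prorenin receptor Atp6ap2 differed by 0.12 ± 0.11, from 3.04 to 3.29 in control and from 3.13 to 3.40 in high-fat samples.

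The LAMP membrane proteins lay close to 0, with all 3 intervals within 0.5 of it. Lamp1, a major glycoprotein of those that coat the lysosome from inside, stood at 6.43, 6.62, 6.44 and 6.40 in control and at 6.64, 6.71, 6.40 and 6.28 in high-fat samples. The high-fat samples held both the highest and the lowest value, and the difference was 0.038 ± 0.13, from -0.25 to 0.33. It was 0.15 on slide 1 and -0.075 on slide 2, and lay below 0 with quantile normalization, normexp and the deposited table, but at 0.0030 with normexp without the smeared spots. The medians of the acinar markers (0.59 and -0.34) and of all genes (0.038 and -0.045) also lay above 0 on slide 1 and below 0 on slide 2. So did Ins1 (0.39 and -0.32) and Ins2 (0.45 and -0.34), while the median of the 7 beta cell markers was -0.0035 and -0.32. The part of these in the Lamp1 values was not tested. Lamp2, the receptor of chaperone-mediated autophagy, differed by -0.094 ± 0.12, and the dendritic cell protein Lamp3 by 0.012 ± 0.15.

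Factors that start autophagy lay close to 0, with Atg13 the farthest from it. Atg13, an adaptor of the ULK1 kinase complex, stood at 3.35, 3.61, 3.64 and 3.51 in control and at 3.70, 3.83, 3.74 and 3.77 in high-fat samples. Every high-fat sample lay above every control sample, by the least between control replicate 3 and high-fat replicate 1. The difference was 0.23 ± 0.10, a 1.18-fold higher signal (limma adjusted p = 0.856), with 0.29 on slide 1 and 0.18 on slide 2. It missed an unadjusted p of 0.05, and passed it in the deposited value table (0.12), with the filter for all 8 arrays, with a trended robust eBayes and without control replicate 3 (0.27). Its sign turned with normexp background correction (-0.25), where the value without the smeared spots was 0.18. The kinases Ulk1 and Ulk2 differed by 0.061 ± 0.14 and 0.18 ± 0.12, and Atg101 of the ULK1 complex and Atg14 of the Beclin 1 complex by 0.11 ± 0.14 and 0.078 ± 0.14.

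Beclin 1 (Becn1), the scaffold of the lipid kinase complex, stood at 0.71, 0.78, -0.08 and 0.35 in control and at 0.44, 0.64, 0.45 and 0.47 in high-fat samples. Control replicate 3 was again its lowest array, and the difference was 0.062 ± 0.19, which was -0.11 without that sample. The transcription factor Tfeb had levels of -3.28, -3.52, -3.49 and -3.70 in control and of -3.42, -3.55, -3.54 and -3.59 in high-fat samples. The high-fat values lay inside the control range, and the difference was -0.027 ± 0.12 with an interval from -0.29 to 0.24. Its sign turned with each of normexp, quantile normalization, median scaling and the deposited table, the last giving 0.0082, and normexp without the smeared spots gave 0.054.

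Of the Atg8 family, whose members are joined to lipid on the autophagosome, 4 of 5 lay above 0 with a median of 0.044. Gabarap stood at 4.73, 5.07, 4.97 and 4.76 in control and at 5.13, 5.35, 4.80 and 5.03 in high-fat samples. The slide 1 samples of the high-fat diet were its highest arrays, and high-fat replicates 3 and 4 lay among the control samples. Its difference was 0.20 ± 0.15 (limma adjusted p = 0.925), and its 3 probes gave 0.20, 0.25 and 0.21. The probe at 0.25 was at an unadjusted p under 0.05 when every probe was tested on its own.

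LC3B (Map1lc3b), the form used as the standard marker of autophagosomes, differed by 0.16 ± 0.12, with high-fat replicate 1 at 2.96 and the other high-fat samples between 3.26 and 3.28. LC3A (Map1lc3a) differed by -0.14 ± 0.13. Gabarapl1 and Gabarapl2 differed by 0.032 ± 0.13 and 0.044 ± 0.11, each above 0 on slide 1 and below 0 on slide 2. So were the medians of the acinar markers (0.59 and -0.34) and of all genes (0.038 and -0.045), and so were Ins1 and Ins2. The part of these in the values was not tested. With normexp all 5 genes of the family lay below 0. Without the smeared spots 3 of 5 lay above it (median 0.035), and with quantile normalization 2 of 5 did. The receptor p62 (Sqstm1), which carries ubiquitinated cargo to LC3, stood at 2.71, 2.93, 2.36 and 2.49 in control and at 2.57, 2.81, 2.58 and 2.37 in high-fat samples. The diets covered the same range, and the difference was -0.042 ± 0.15 with an interval from -0.40 to 0.31.

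The remaining ATG genes, which conjugate the Atg8 proteins, transfer lipid or recycle membrane, had 5 of 13 above 0 and a median of -0.064. Atg2b, which moves lipid into the growing membrane, was the lowest at -0.32 ± 0.16 (limma adjusted p = 0.872). Its control levels were -1.14, -1.61, -1.15 and -1.52 and its high-fat levels -1.50, -1.76, -1.53 and -1.90. Control replicates 1 and 3 lay above all high-fat samples, while control replicates 2 and 4 lay among them. Atg2b was at an unadjusted p under 0.05 without control replicate 2 (-0.40) and with the replicate number as a block (-0.32). Its sign turned with normexp background correction (0.15), where the value without the smeared spots was -0.20. Its paralogue Atg2a differed by -0.043 ± 0.17.

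Of the conjugation enzymes, the E2-like Atg3 was the highest at 0.14 ± 0.094, from 0.35 to 0.50 in control and from 0.48 to 0.67 in high-fat samples. The E1-like Atg7 differed by -0.080 ± 0.12, and Atg5, which had a value on 6 arrays after outlier spots were left out, by 0.081 ± 0.17. Atg16l1, the partner of Atg5, differed by -0.064 ± 0.23, with control replicates 1 and 2 at 0.39 and 0.37 and control replicate 3 at -0.63. The scramblase Atg9a had the widest spread of this group, from -1.38 to -0.15 in control and from -1.88 to -0.31 in high-fat samples. Replicate 1 of each diet was its highest, and its difference was -0.25 ± 0.37. The processing proteases Atg4b, Atg4c and Atg4d differed by -0.087 ± 0.14, 0.058 ± 0.11 and 0.13 ± 0.11, and Atg10 and Atg12 by 0.033 ± 0.13 and -0.086 ± 0.10. Atg16l2, a relative of Atg16l1, differed by -0.14 ± 0.22 on the probe that stood for it and by -0.15 ± 0.30 on the other.

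Probes of the same gene often did not share a sign. Of 15 members with several kept probes, 7 had probes of a shared sign and 8 did not. The 8 are Atg7, Atg10, Atg12, Atp6v1a, Atp6v1g2, Lamp2, Sqstm1 and Ulk2. For Lamp2 the probes gave -0.094 ± 0.12 and 0.072 ± 0.16, and for Ulk2 0.18 ± 0.13 and -0.068 ± 0.12. For Sqstm1 the probe not used above gave 0.25 ± 0.42, and control replicate 1 and high-fat replicate 1 were its highest arrays, at -2.92 and -2.95.

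Lysosomal and autophagy genes outside the families above were read from the same fit, with 0 genes at an adjusted p under 0.05 (limma) in each list. At an unadjusted p under 0.05, 2.62% of all genes were higher and 3.17% lower. Of 36 hydrolases and their activators 23 lay above 0, with a median of 0.12. It was -0.24 with normexp, 0.11 without the smeared spots and 0.052 with quantile normalization. On slide 1 the median was -0.020 and on slide 2 it was 0.15, and the mean level was lowest on control replicate 3 (1.51). At an unadjusted p under 0.05, 1 of the 36 was higher. This was Glb1, the beta-galactosidase that cathepsin A protects, at 1.14, 1.16, 0.94 and 1.36 in control and 1.15, 1.64, 1.70 and 1.57 in high-fat samples. High-fat replicate 1 lay among its control samples, and the difference was 0.37 ± 0.15 (limma adjusted p = 0.835), with 0.24 in the deposited value table. Normexp gave -0.0089, and 0.28 without the smeared spots. Of 21 membrane and transport proteins 15 lay above 0, with a median of 0.064. It was -0.22 with normexp, 0.055 without the smeared spots, -0.023 on slide 1 and 0.055 on slide 2. Their mean level was also lowest on control replicate 3 (1.38), and 1 of the 21 was lower at an unadjusted p under 0.05. It was Laptm5, a lysosomal protein of blood cells, at -0.79 ± 0.24 (SE), with control levels from -1.77 to -1.01 and high-fat levels from -2.44 to -1.51. The difference was -0.23 in the deposited value table, -0.079 with normexp and -0.48 without the smeared spots. The macrophage markers were lower in high-fat samples too, for 9 of 10 genes with a median difference of -0.36 and none at an unadjusted p under 0.05, and their part in the Laptm5 value was not tested.

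Of 27 sorting factors 12 lay above 0 (median -0.010) and of 30 regulators of mTORC1 and TFEB 11 did (median -0.044), with none at an unadjusted p under 0.05. Of 38 other autophagy factors 18 lay above 0, with a median of -0.013, and 3 were higher at that p. Trp53inp1, a stress-induced protein that binds LC3, stood at 0.94, 0.80, 1.03 and 1.07 in control and at 1.36, 1.32, 1.18 and 1.60 in high-fat samples. The diets did not overlap, and the difference was 0.40 ± 0.12 (limma adjusted p = 0.709), with 0.13 by normexp and 0.39 without the smeared spots. The lipid-binding Wipi1 and the membrane protein Vmp1, which act in autophagosome formation, differed by 0.33 ± 0.12 and 0.35 ± 0.14. The deposited value table gave 0.21 and 0.23, and normexp gave 0.17 and -0.091, or 0.28 and 0.27 without the smeared spots. Of the 9 cystatins, inhibitors of cysteine cathepsins, 5 were kept and 4 lay above 0, and Cst6, higher at an unadjusted p under 0.05, was at 0.57 ± 0.23, with 0.34 in the deposited value table and 0.29 with normexp.

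Promoters were searched for the E-box motif that TFEB and related factors are known to bind, from 250 bases before to 50 after the RefSeq start of each gene on GRCm38, on both strands. A promoter was matched by symbol for 53 of 65 members. The word CACGTG, which is part of the longer ones, was found in 13 of 53 (24.5%) and in 8.09% of 27025 promoters. TCACGTGAC was found in 4 of 53 (7.55%) and in 0.895% of all, and the same word with a G before it in 0 of 53 and in 0.370% of all. The 4 genes are Ctsa, Ctsd, Atp6v0d1 and Atg3, and the windows around their matches are shown because Ctsa, the member with the smallest p, holds a pair of them. Capitals mark the match on the gene's strand, and each window is written 5′ to 3′ on that strand.

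Ctsa, chr2:164833749-164833777, plus strand: tgagcaaactGTCACGTGAtgcagatgct
Ctsa, chr2:164833767-164833795, plus strand: atgcagatgcTCACGTGACcagagctaca
Ctsd, chr7:142387908-142387936, minus strand: cgcccgcgtcTCACGTGACccgttgaggg
Atp6v0d1, chr8:105566051-105566079, minus strand: ccctactgcgGTCACGTGAgacgcggtgc
Atg3, chr16:45158746-45158774, plus strand: ggagagtcgaGTCACGTGAggccttaggt

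Counted in bases from the RefSeq start, the matches begin at -14 and 5 for Ctsa, -99 for Ctsd, -5 for Atp6v0d1 and -73 for Atg3. The differences of these genes between diets were 0.28 for Ctsa, 0.18 for Ctsd, 0.051 for Atp6v0d1 and 0.14 for Atg3. With normexp all 4 lay below 0, and without the smeared spots they were 0.26, 0.17, 0.022 and 0.11. A match in a promoter is a description of its letters. Apart from Ctsa, none of the 4 was at an unadjusted p under 0.05.

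The 8 members of the families that were not kept were well above background on 0 to 2 arrays. They are the V-ATPase isoforms Atp6v0d2, Atp6v1b1 and Atp6v1c2, the cathepsins Ctse, Ctsj and Ctsq, and Atg4a and Atg9b. On 1 array, control replicate 4, Ctsq was at -2.99 while the other 7 arrays lay between -7.41 and -6.99.

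The diets were also compared with the slide held fixed. With the slide as a block, 2 of 65 members, Ctsa and Atp6v1g3, were higher at an unadjusted p under 0.05 and 3.62% of all genes were, while 0 members were lower and 3.63% of all genes were. Slide 1 alone had 2 members higher at that p, Ctsr and Atp6v1g3, beside 5.49% of all genes. Slide 2 alone had 2 others, Atp6ap1 and Atp6v1g2, beside 3.12% of all genes. A slide holds 2 arrays per diet, and no member was among these on both slides. Atp6v1g3 and Ctsr passed the filter mainly through the high-fat arrays (1 and 2 control arrays above background), so they do not count as support for higher members.

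The members' median difference lay between 0.0072 and 0.088 when each sample was left out in turn. Within slide 1 the median was 0.021 and within slide 2 it was 0.055, and the medians of all genes there were 0.038 and -0.045.

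**Figure D5:**
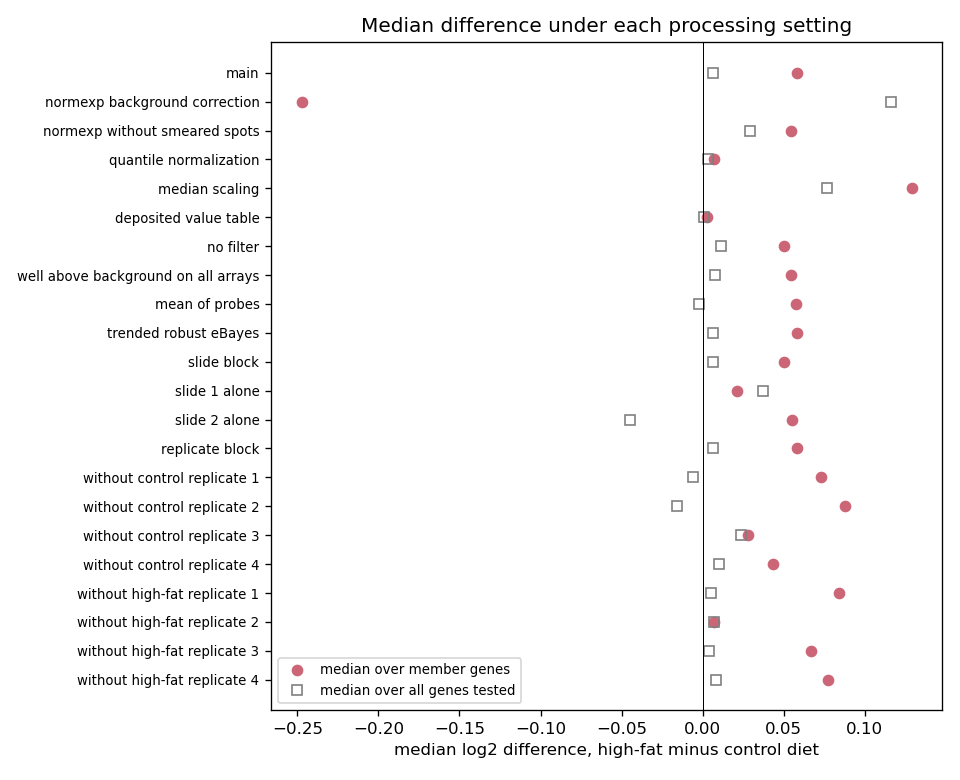
Median log2 difference (x axis, high-fat minus control) over the member genes (red circles) and over all genes tested (open squares) under each processing setting (y axis). The members' median lies below 0 with normexp background correction, at -0.25, at 0.054 with normexp without the smeared spots, and at or above 0.0028 in the other settings.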

How the data were processed

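Labelled RNA of 4 control and 4 high-fat samples was measured on Agilent mouse arrays with 1 dye. Per the file headers, the deposited scanner files hold spot intensity from Feature Extraction 11.5.1.1. The value table deposited by the authors holds log2 values, which the submitters' processing notes tie to limma, with its scaling not given in the sources used here. Positions of probes come from the scanner files and refer to mm9.

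Control spots and spots marked as outliers (125 to 228 per array) were left out. No spot was saturated. The processed signal was put on the log2 scale, the 75th percentile of the array was subtracted and spots of a probe were averaged. Probes had to exceed background clearly on 4 or more of the 8 arrays, which kept 26084 of 39429, and the brightest on average represented its gene, giving 19997 genes. The model was limma 3.58.1 under R 4.3.3 (lmFit, eBayes) with no block, and adjustment followed Benjamini and Hochberg. The median SE was 0.17. The number of arrays limits the precision. The fit was tested on simulated data.

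The members, the lists and the rule for naming genes were chosen with earlier results of these data known, so counts over a list are descriptions without a test. Named were a core of well-known members, members at an unadjusted p under 0.05, the highest and lowest of each role group, members whose probes differ in sign, and listed pathway genes at that p. Other members were named after their values had been seen. Alternatives were normexp (offset 50) with and without spots of local background over 4 times the array's median, quantile normalization, median scaling, the deposited table, other filters, averaged probes, trended robust eBayes, blocks for slide or replicate number, single slides, and 1 sample left out. Correlations used exact permutation over 8 samples. Promoters are those of RefSeq on GRCm38. Tables were made with Python 3.11.15, pandas 2.3.3, numpy 2.4.6 and scipy 1.17.1, and figures with matplotlib 3.10.9.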

Additional observations from a re-analysis of the deposited data

Results flagged for a closer look

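In each diet of 4 samples, a sample was set apart where its gap to the nearest other sample, as a share of the whole range, was above Dixon's 95% critical value. This held for 11 of 128 groups checked over 65 genes. The critical value is set to pass about 1 in 20 groups by chance, if groups are independent. These groups share the same arrays, so that rate is no yardstick for their count. The share over all genes tested was not computed, so an excess among these genes was not tested. High-fat replicate 1 accounted for 4 of them and was the lowest each time, with gaps of 0.904 for Atp6v0d1 (level 2.73), 0.954 for Atp6v0e2 (3.72), 0.892 for Atp6v1g2 (-2.19) and 0.919 for Map1lc3b (2.96). Control replicate 3 accounted for 3. It was the lowest control sample for Atp6v1h (gap 0.881, level 0.50) and Ctsf (0.929, level 1.29), and the highest for Atg7 (0.930, level 0.46). The others were single cases. Control replicate 1 was low for Ctsl (0.881, level 4.25), control replicate 2 low for Atp6v1e2 (0.844, level -3.97), high-fat replicate 2 high for Becn1 (0.842, level 0.64) and high-fat replicate 4 low for Atg2a (0.856, level -0.66). The part of array quality in these values was not tested.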

How the results depend on the processing

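In each alternative and each fit with a sample left out, 0 members passed the adjusted threshold. The count of all genes past it was 1 with the deposited table and with a trended robust eBayes, and 0 to 4 with a sample left out. The count of members higher at an unadjusted p under 0.05 was 0 with normexp and with the mean of a gene's probes. Of all 19997 genes 85 and 485 were higher there. The member count was 2 with quantile normalization, median scaling, a trended robust eBayes and the slide as a block. Of all 19997 genes 583, 727, 647 and 724 were higher in these fits. It was also 2 on slide 1 alone and on slide 2 alone, where 1098 and 623 of all genes were. The stricter filter gave 2 of 60 members, beside 526 of 17943 genes. The deposited table gave 3 members, beside 576 of 19911 genes. Every probe tested on its own gave 2 of 81 member probes, and the count over all probes is not given here. With a sample left out the count of higher members ranged from 0 to 4. It was 0 without control replicate 4 or high-fat replicate 2, where 437 and 315 of all 19997 genes were higher. It was 4 without control replicate 3 (Ctsr, Ctsa, Atg13, Atp6v1g3) or high-fat replicate 1 (Atp6v0e2, Atp6v1g2, Atp6v0a4, Ctsa). Of all genes 1111 and 1115 were higher there. Ctsr, Atp6v1g3 and Atp6v0a4 passed the filter mainly through the high-fat arrays, so they do not count as support. Control replicate 3 was the 1 control array that measured Atp6v1g3. The count of lower members ranged from 0 to 1, being 1 without control replicate 2 (Atg2b) or high-fat replicate 1 (Ctso). Of all genes 634 and 959 were lower there. The members' median was -0.25 with normexp and ranged from 0.0072 to 0.088 with a sample left out. With normexp the signs of 41 members turned and Ctsa stood at -0.17. On high-fat replicate 2, 7 spots in a bright smear enter that fit, and without such spots the median was 0.054 and 8 signs turned. Quantile normalization turned 11 signs, 14 turned in the deposited table and 7 with median scaling.

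Higher genes made up 45.2% of all genes at an unadjusted p under 0.05 (523 higher, 634 lower), compared with 66.5% with median scaling (727 and 367), 56.3% with normexp (85 and 66), 58.0% without the smeared spots (429 and 311) and 55.5% in the deposited table (576 and 461). Slide 1 alone gave 1098 and 474 and slide 2 alone 623 and 891.

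Replicate numbers are shared by the diets in the labels. Same-numbered samples had correlations of deviations of 0.21, 0.40, -0.0041 and 0.30, and 3 of 4 numbers had their own partner as the best. These values neither show nor exclude a pairing. The labels name no shared animal, litter or day for a number, so the main fit has no block. With the replicate block 1 member was higher (Ctsa) and 1 lower (Atg2b), with 808 genes higher and 1020 lower. Its median was 0.058.

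With 4 arrays per diet the intervals of 25 members reach past 0.5. The dim probes (Atp6v1g3, Atp6v0a4, Ctsr, Ctsm, Ctsg) were not well above background on every array.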
